A study of Mus musculus with 8 samples.

Results

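Broad H3K27me3 domains were defined as continuous stretches of at least 10000 bp that were covered by peaks of 1 or more libraries. The peaks of the 5 H3K27me3 libraries were pooled, peaks that overlapped or touched were merged, and merged regions of that width were kept. This gave 858 domains of 99646 merged regions (0.861%), which held 14.2 Mb of the 142.9 Mb covered by any peak (9.91%). Peaks of the libraries described here chose the domains, so widths, coverage and scores inside them are a description and carry no test. Coverage was tested only where domains were rebuilt without the library that was measured, and peaks of the other libraries still chose those domains.

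The libraries came from 2 stages of a mouse model of glioma and were made by chromatin immunoprecipitation and sequencing with an antibody to H3K27me3. AstroEGFR cells (n = 2, replicates 1 and 3) were C57BL/6 astrocytes cultured from the cerebral cortex at postnatal day 5, with p16/p19 (Ink4a/Arf) knocked out and human EGFRvIII, an active mutant of the EGF receptor, introduced by retroviral vector. PT cells (n = 3, replicates 1, 3 and 4) were glioma propagating cells cultured from the primary tumours that such astrocytes formed after transplantation from C57BL/6 into CD1 Nude mice, so both groups shared the deletion and the receptor. The study describes a medium with fetal bovine serum for the astrocytes. For the cells from tumours it lists neurobasal medium with EGF and fibroblast growth factor, on laminin, and no serum. Stage and culture condition thus differed together and cannot be told apart. All cells were below passage 10, no untreated or normal astrocyte library was among the 5, and 3 input libraries were not analysed here. The labelled cell types were not checked against marker genes, because gene annotation of mm9, the genome build of the peak lists, was not used here, and for the same reason no gene is named at any domain.

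H3K27me3 is deposited on histone H3 by Polycomb repressive complex 2 (PRC2) and is associated with genes that are kept silent or poised. It can form narrow peaks at promoters, but PRC2 can also bind the methylated histone and methylate neighbouring nucleosomes, and the mark can then spread over long stretches that hold clusters of developmental regulators. In neural cells, such stretches are known for holding genes of other lineages and of other stages of development in a silent state. The cultures were measured in bulk, so a mark present in fewer cells and less mark per cell cannot be told apart.

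The 5 peak lists differed in ways that bear on every value below. They held between 3722 peaks (AstroEGFR 3) and 66279 peaks (PT 4), and AstroEGFR 3 covered 3.48 Mb where the others covered 39.2 to 87.9 Mb. Peaks on unplaced sequences numbered 179 to 236 in the lists of AstroEGFR 1, PT 1 and PT 4 and 0 in those of AstroEGFR 3 and PT 3, and these 2 sets of lists each contained both groups. The study describes numbered astrocyte batches and the tumours grown from them, so libraries with the same number (AstroEGFR 1 and PT 1, AstroEGFR 3 and PT 3) may share a batch and need not be independent. AstroEGFR 3 and PT 3 share both a number and a set, and the 2 cannot be told apart for that pair. Read depth is unknown, and a domain without a peak in a library is one where no peak passed the threshold of that list. The part of list length and of set membership in the differences between libraries was not tested.

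The domains had a median width of 13707 bp (interquartile range 11414 to 18314 bp), against 844 bp for all merged regions, and the widest spanned 146102 bp. Of the 858, 275 were under 12 kb wide, 178 reached 20 kb, 49 reached 30 kb and 4 reached 50 kb. In 548 domains (63.9%) at least 1 library had a single peak of 10000 bp or more, whereas in the other 310 (36.1%) the width arose only by joining peaks of different libraries. The widest single peak spanned a median of 84.7% of its domain, and 62.0% in domains formed by joining alone. AstroEGFR 1 had its own peak of 10000 bp or more in 144 domains, AstroEGFR 3 in 7, PT 1 in 411, PT 3 in 41 and PT 4 in 344. The long single peaks were mostly those of PT 1 and PT 4, which were also the longest lists.

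At the threshold, the narrowest domains were chr19:38166761-38176760 and chr12:74701369-74711368, both exactly 10000 bp, and chr13:99304434-99314448 with 10015 bp. AstroEGFR 1 covered 58.1%, 50.9% and 71.9% of these 3 domains. The widest regions left out were chr14:67310192-67320189 (9998 bp), chr19:45366011-45376007 (9997 bp) and chr10:59499402-59509394 (9993 bp). AstroEGFR 1 covered 0, 8372 and 9489 bp of these, and PT 1 covered 9506, 9806 and 9993 bp. Members and non-members at the threshold were thus alike in kind, and the width limit separates a continuous range.

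Within the domains the libraries ranked PT 1, PT 4, AstroEGFR 1, PT 3 and AstroEGFR 3 by the share of domain length that their peaks covered. PT 1 covered 92.3%, PT 4 91.4%, AstroEGFR 1 71.4%, PT 3 46.1% and AstroEGFR 3 7.69%. PT averaged 76.6% ± 26.4 (SD, n = 3) and AstroEGFR 39.6% ± 45.1 (SD, n = 2), a difference of 37.0 percentage points with overlapping groups, since AstroEGFR 1 lay above PT 3. The difference was 5.17 points without AstroEGFR 3 and 70.7 points without AstroEGFR 1, with the domains rebuilt each time. Within the sets of lists, PT 1 and PT 4 averaged 20.4 points above AstroEGFR 1, and PT 3 lay 38.4 points above AstroEGFR 3. The direction was the same in both sets, while the size of the pooled difference depended on which AstroEGFR library was used.

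**Figure D1:**
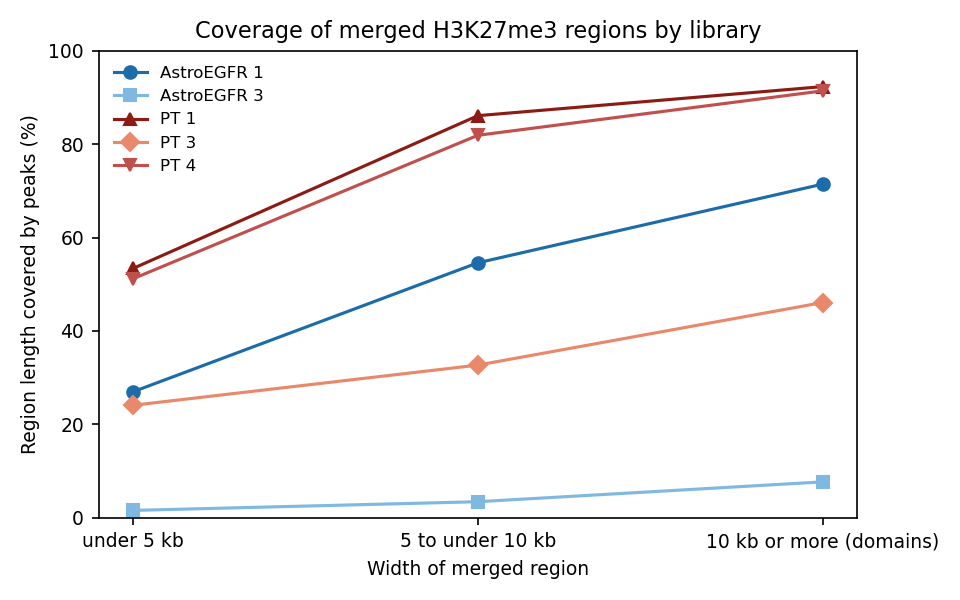
Share of merged region length covered by peaks of each library (%, vertical axis) in regions under 5 kb, of 5 to under 10 kb, and in the domains of 10 kb or more (horizontal axis), with 1 point per library and width class. All 5 libraries covered most in the domains, from 7.69% in AstroEGFR 3 to 92.3% in PT 1, and regions of this width were selected from the same peaks.

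Coverage varied between domains far more in some libraries than in others. AstroEGFR 1 had a median of 78.1% per domain (interquartile range 52.8% to 91.5%), PT 1 95.4% (89.8% to 98.7%) and PT 4 94.7% (87.9% to 98.0%). PT 3 had a median of 44.0% (22.0% to 65.1%), and AstroEGFR 3, which marked fewer than 1 in 2 domains, a median of 0% (0% to 9.39%). Domains covered to 90% or more numbered 636 in PT 1, 590 in PT 4, 250 in AstroEGFR 1, 34 in PT 3 and 8 in AstroEGFR 3. Domains covered to less than 10% numbered 2, 4, 56, 110 and 659 in the same order. PT 1 and PT 4 were close to each other, with 634 domains (73.9%) in which they differed by less than 10 percentage points and a largest difference of 59.1 points.

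**Figure D2:**
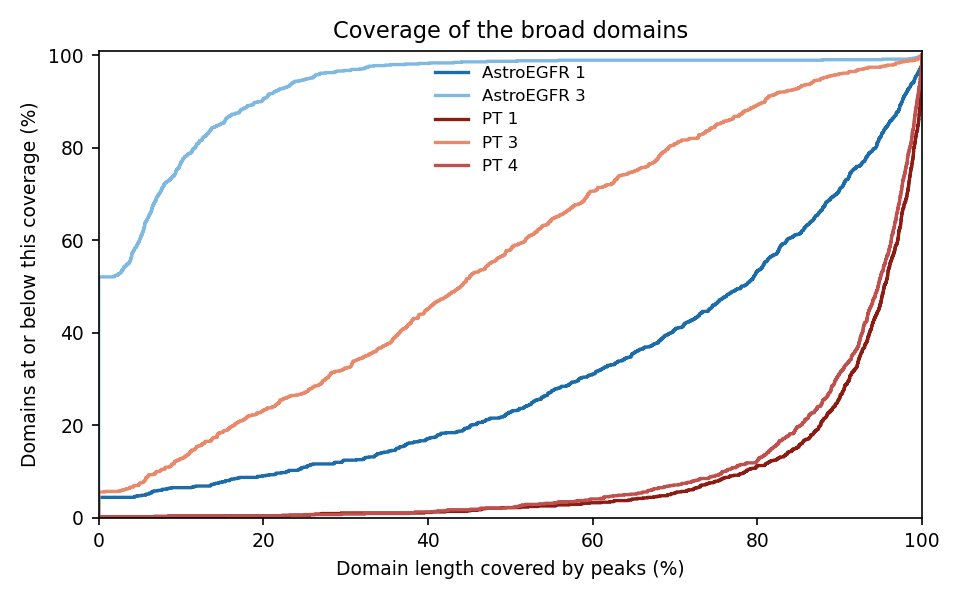
Cumulative share of the 858 domains (%, vertical axis) at or below each coverage by peaks (%, horizontal axis), with 1 line per library. The PT 1 and PT 4 lines run together at the right, with medians of 95.4% and 94.7%, the AstroEGFR 1 line has its median at 78.1% and the PT 3 line at 44.0%, and the AstroEGFR 3 line starts above the middle of the axis because 411 of the 858 domains held any of its peaks.

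To measure each library on domains that its own peaks had not chosen, domains were rebuilt from the other 4 libraries, which gave 586 domains without PT 1, 650 without PT 4, 735 without AstroEGFR 1, 792 without PT 3 and 854 without AstroEGFR 3. PT 1 then covered 91.8% of their length, PT 4 91.1%, AstroEGFR 1 68.8%, PT 3 44.4% and AstroEGFR 3 7.43%. The order of libraries was as before, and each library fell by less than 3 points. Held-out coverage averaged 75.8% ± 27.2 (SD, n = 3) in PT and 38.1% ± 43.4 (SD, n = 2) in AstroEGFR, a difference of 37.6 points that was matched or exceeded in 3 of the 10 ways of dividing the libraries 2 against 3 (p = 0.3, exact permutation test, two-sided). The smallest p that 2 against 3 libraries can give is 0.1, so no difference of this kind could pass 0.05. The test treats all 5 libraries as independent. The held-out sets were not alike, since PT 4 helped choose the set for PT 1 and the reverse. PT 4 covered 94.0% of PT 1 bases in the full set of domains. These 2 lists also had most of the long single peaks (411 and 344 domains, against 144 or fewer in the others). Each AstroEGFR set was chosen by all 3 PT lists and the other AstroEGFR list. The rule could thus still favour PT 1 and PT 4, and its part in the difference of 37.6 points was not tested. Between libraries with the same number, PT 1 lay 23.0 points above AstroEGFR 1 and PT 3 36.9 points above AstroEGFR 3. The difference was 6.86 points without AstroEGFR 3 and 70.3 points without AstroEGFR 1, and within the sets it was 22.6 and 36.9 points.

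In these held-out domains every library covered a larger share of length than in the narrower regions built from the same 4 lists. The ratio of both shares was highest in AstroEGFR 3, at 5.14 (7.43% against 1.45%), followed by PT 3 at 2.83 (44.4% against 15.7%), AstroEGFR 1 at 2.67 (68.8% against 25.8%), PT 4 at 1.87 (91.1% against 48.8%) and PT 1 at 1.80 (91.8% against 51.1%). The 2 longest lists had the lowest ratios, and their coverage of the domains had little room left to rise. At least 1 peak was present in 99.7% of the held-out domains in PT 1 and PT 4, in 94.8% in AstroEGFR 1, in 93.9% in PT 3 and in 47.7% in AstroEGFR 3.

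The peaks inside the domains also ranked high by score within their own lists, a score that is taken to rise as the p-value of a peak falls. Over the domains each library marked, the best peak had a median within-list percentile of 99.1 for PT 4, 99.0 for PT 1, 97.2 for AstroEGFR 1, 95.8 for PT 3 and 75.5 for AstroEGFR 3. PT averaged 98.0 ± 1.92 (SD, n = 3) and AstroEGFR 86.3 ± 15.3 (SD, n = 2), and the difference of 11.7 was 0.774 without AstroEGFR 3 and 22.4 without AstroEGFR 1. Many of the strongest peaks shared a score of 3100, which few exceeded, and it was reached or exceeded in 628 domains in PT 1, 572 in PT 4, 140 in AstroEGFR 1, 66 in PT 3 and 8 in AstroEGFR 3. Tied peaks share 1 average percentile, 99.04 in PT 1 and 99.15 in PT 4. The medians of PT 1 and PT 4 were those of the tie and do not rank these 2 libraries. Score and width come from the same peaks, and a wide peak holds more reads than a narrow one, so these ranks are not independent of the width rule.

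Of the domains, 404 (47.1%) held a peak in all 5 libraries, against 1.31% of all merged regions, and a further 374 (43.6%) in all but AstroEGFR 3, against 5.74%. With AstroEGFR 3 left aside, 778 (90.7%) were marked in AstroEGFR 1 and all 3 PT libraries, against 7.05% of all regions. A wide region has more room for a peak of each list, so a share above that of all regions follows in part from the rule. The remaining domains were 41 marked by AstroEGFR 1, PT 1 and PT 4 only (4.78%, against 7.44%), 27 marked by all PT and no AstroEGFR library (3.15%, against 3.76%), 5 by PT 1 and PT 4 only, 3 by all but AstroEGFR 1, 2 by AstroEGFR 3 and PT 3 only, and 1 each for 2 other combinations. No domain was without a PT peak, so 0 were marked in both AstroEGFR libraries and no PT library, against 0.0231% of all regions.

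The share of domains marked in all 5 libraries was higher in wider classes. All 5 libraries marked 36.4% of domains of 10 to under 12 kb, 42.6% of those of 12 to under 15 kb, 51.2% of 15 to under 20 kb, 59.7% of 20 to under 30 kb and 81.6% of those of 30 kb or more. This rise went with AstroEGFR 3, which marked 37.5% of the narrowest class and 81.6% of the widest. AstroEGFR 1 marked 93.5% and 91.8% of these, PT 3 91.6% and 93.9%, and PT 1 and PT 4 each 100% of both. From the narrowest to the widest of these classes, the covered share of length went from 61.6% to 81.9% in AstroEGFR 1, from 5.31% to 12.8% in AstroEGFR 3 and from 41.3% to 57.2% in PT 3. PT 1 went from 89.1% to 96.5% and PT 4 from 87.5% to 97.3%. Coverage was thus higher in the widest than in the narrowest class in each of the 5 libraries, as the merging rule favours.

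Domains that AstroEGFR 3 marked beside all other libraries had higher coverage in PT 3 than those marked by the other 4 libraries only. In the 404 domains marked by all 5, the median coverage was 54.7% in PT 3 and 81.3% in AstroEGFR 1. In the 374 marked by all but AstroEGFR 3 it was 35.8% in PT 3 and 75.5% in AstroEGFR 1, and the median best percentile of PT 3 was 90.7 in place of 98.0. PT 1 and PT 4 had medians of 95.9% in the first class, and 95.1% and 93.3% in the second. The difference between both classes was thus larger in PT 3 than in AstroEGFR 1, PT 1 or PT 4. Domains of the first class were also wider, with a median of 15218 against 12865 bp, and PT 1 and PT 4 had little room left to differ. The part of width in this difference was not tested.

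The widest domain was chr15:102734196-102880297, 146102 bp on mm9, which was marked in all 5 libraries. AstroEGFR 1 covered 140847 bp of it (96.4%) with 21 peaks, PT 1 143603 bp (98.3%) with 4 peaks and PT 4 145912 bp (99.9%) with 3 peaks. PT 3 covered 114135 bp (78.1%) with 41 peaks and AstroEGFR 3 19062 bp (13.1%) with 20 peaks. In PT 1 and PT 4 nearly the whole domain was a single peak, of 139092 and 141836 bp, while AstroEGFR 1 had no peak wider than 17740 bp there, PT 3 none wider than 15754 bp and AstroEGFR 3 none wider than 1641 bp. A further domain, chr15:102910117-102958192 (48076 bp), lay on the same stretch, and there AstroEGFR 1 covered 91.3%, AstroEGFR 3 2.84%, PT 1 96.8%, PT 3 36.5% and PT 4 97.2%.

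The next widest, chr8:126060834-126151529 (90696 bp), differed sharply between the sets of lists. AstroEGFR 1 covered 89965 bp (99.2%) of it, PT 1 89806 bp (99.0%) and PT 4 all 90696 bp, each almost entirely with 1 peak. PT 3 had 1 peak of 694 bp (0.765%) there and AstroEGFR 3 had none. The division did not follow the groups, as each side held an AstroEGFR and a PT library, and AstroEGFR 3 and PT 3 share their number as well as their set.

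Of the other 8 among the 10 widest, all were marked in all 5 libraries, and the coverage of AstroEGFR 1 ranged from 63.0% to 97.7% and that of AstroEGFR 3 from 2.84% to 24.3%. In chr8:125190158-125250620 (60463 bp) AstroEGFR 1 covered 63.0%, AstroEGFR 3 9.82%, PT 1 98.9%, PT 3 42.0% and PT 4 99.3%. In chr11:96110552-96168848 (58297 bp) the values were 92.0%, 22.9%, 97.6%, 93.1% and 96.5% in the same order of libraries. In chr2:74543571-74593537 (49967 bp) they were 93.4%, 24.3%, 97.4%, 91.2% and 99.6%. These last 2 were the only ones of the 10 in which PT 3 covered over 90%, and in the first of them PT 3 lay above AstroEGFR 1, so that all 3 PT libraries lay above both AstroEGFR libraries.

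The remaining 4 of the 10 widest, each marked by every library, were chr19:43652762-43702327 (49566 bp), chr6:83632629-83681010 (48382 bp), chr11:97388795-97436374 (47580 bp) and chr2:33460073-33506473 (46401 bp). AstroEGFR 1 covered 97.7%, 90.4%, 76.3% and 70.1% of them, AstroEGFR 3 9.26%, 14.9%, 21.7% and 6.67%, and PT 3 68.2%, 68.3%, 37.6% and 40.3%. PT 1 covered 96.1% to 100% and PT 4 94.1% to 99.1%. In chr19:43652762-43702327 AstroEGFR 1 lay above each PT library, and in the other 3 it lay between PT 3 and the other PT libraries.

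**Figure D3:**
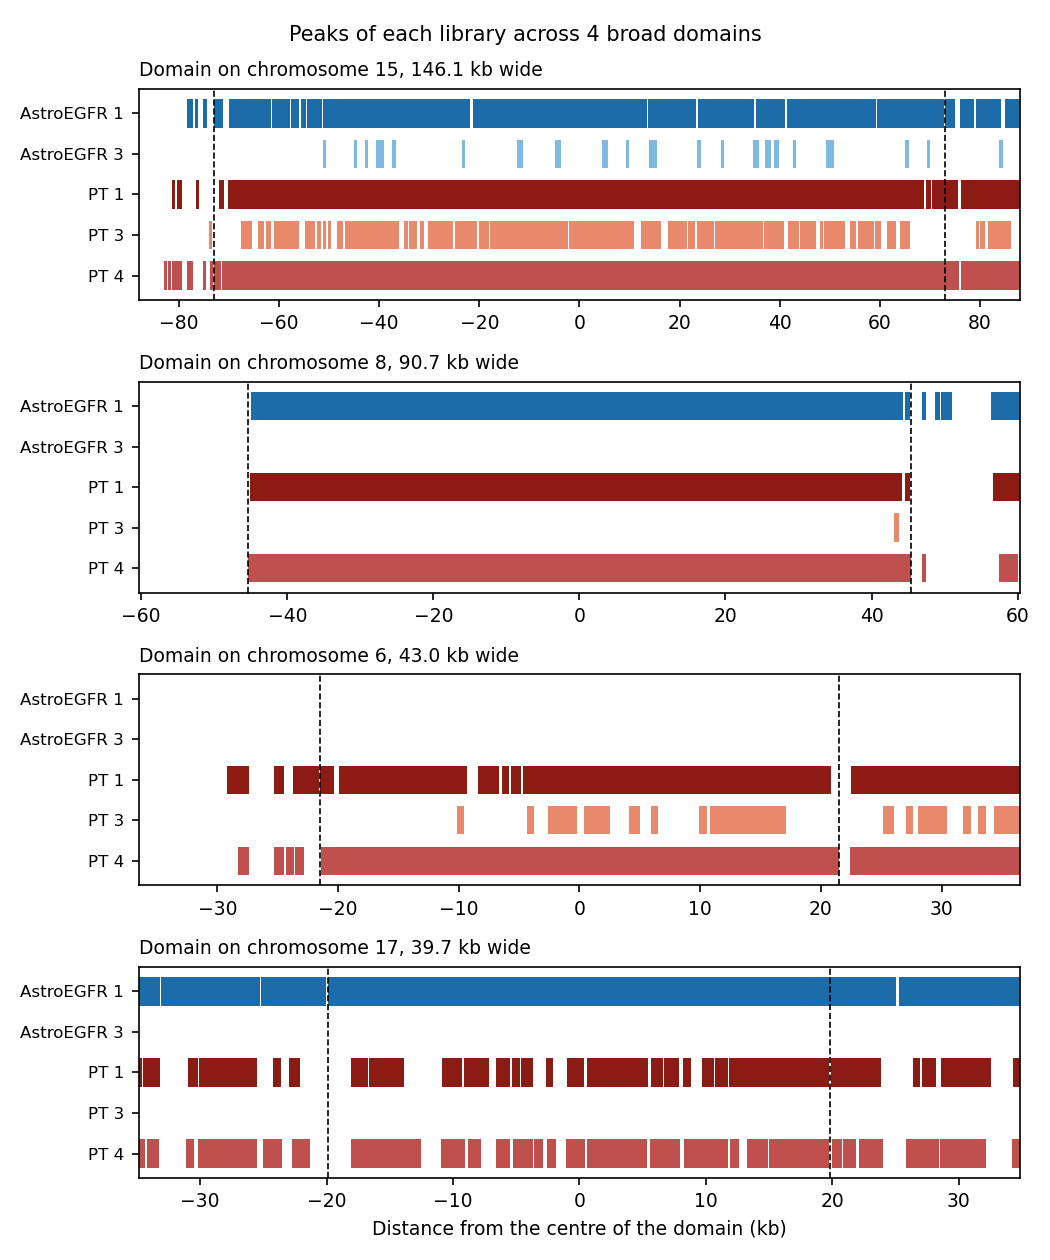
Peaks of each library (rows of bars) along 4 domains, plotted by distance from the centre of the domain (kb, horizontal axis), with dashed lines at the edges of each domain. The domain of 146102 bp on chromosome 15 is marked in all 5 libraries, the domain of 90696 bp on chromosome 8 is nearly empty in AstroEGFR 3 and PT 3, the domain of 43015 bp on chromosome 6 is empty in both AstroEGFR libraries, and the domain of 39706 bp on chromosome 17 is filled in AstroEGFR 1 and broken up in PT 1 and PT 4.

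The mark was laid out differently inside the domains in different libraries. Peaks in the domains numbered 2435 for PT 1, with a mean covered length of 5367 bp, 2782 for PT 4 (4651 bp), 3257 for AstroEGFR 1 (3105 bp), 3964 for PT 3 (1646 bp) and 923 for AstroEGFR 3 (1180 bp). The median number of peaks per marked domain was 4 in AstroEGFR 1 and PT 3, 3 in PT 4 and 2 in PT 1 and AstroEGFR 3. PT 3 had the most peaks in the domains and covered less than AstroEGFR 1, PT 1 or PT 4, since its peaks were short. Over the domains each library marked, 411 in AstroEGFR 3, the median span from first to last peak was a varying share of domain width. It was 78.6% in PT 3 and 15.4% in AstroEGFR 3, against 92.7% in AstroEGFR 1 and 98.4% in PT 1 and PT 4.

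The centre of a domain was covered more than its ends in all 5 libraries. AstroEGFR 1 covered 76.3% of the central 20% of domain width and 58.2% of the outer 10% at each end, a ratio of 1.31, and AstroEGFR 3 covered 10.4% and 4.17%, a ratio of 2.48. PT 3 covered 53.9% and 30.7%, a ratio of 1.76, while PT 1 and PT 4 had ratios of 1.14 and 1.15. By this ratio the libraries with the lowest coverage fell off most toward the ends, whereas in percentage points the drop was smallest in AstroEGFR 3. Since the end of a domain is the outermost edge of any peak, coverage has to be lower there in the libraries that did not set it.

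**Figure D4:**
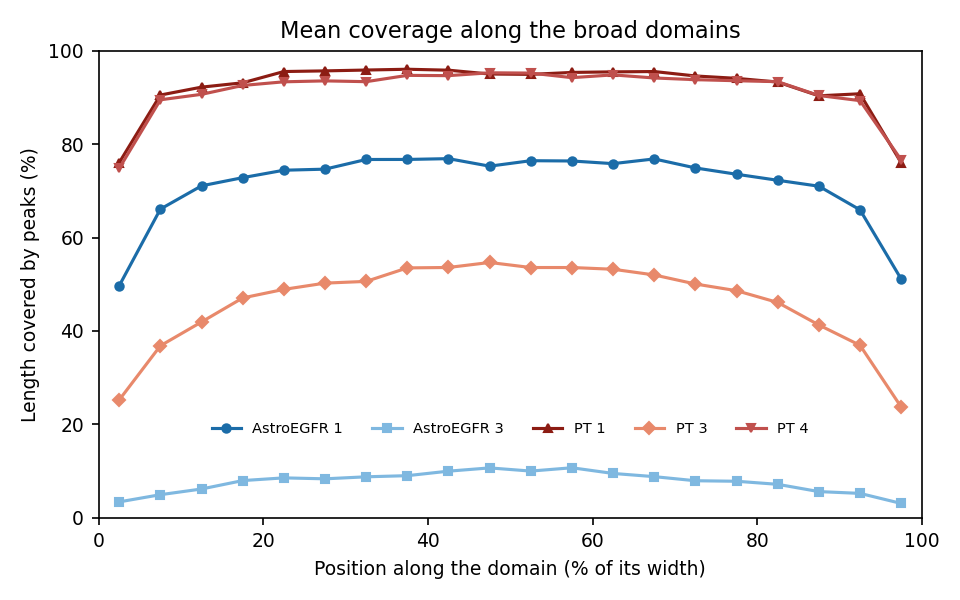
Mean share of length covered by peaks (%, vertical axis) in 20 equal parts along the width of the domains (%, horizontal axis), with 1 line per library. Each line is higher in the middle than at the ends, with a drop from 53.9% centrally to 30.7% in the outer parts of PT 3 and a drop from 10.4% to 4.17% in AstroEGFR 3, the lowest line.

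PT 1 and PT 4 shared most of their covered bases within the domains, with a Jaccard index (bases in both divided by bases in either) of 0.895. It was 0.698 for AstroEGFR 1 with PT 1 and 0.696 for AstroEGFR 1 with PT 4, and 0.457 and 0.459 for PT 3 with PT 1 and PT 4. The outermost edges of PT 1 and PT 4 lay a median of 164 bp apart and 92.4% of them were within 1000 bp, against 459 bp and 68.8% for AstroEGFR 1 and PT 1. The lower indices of PT 3 went with its smaller covered length, as 94.2% of its bases were also covered in PT 1 and 80.2% in AstroEGFR 1. Of all domain length PT 1 covered 92.3% and AstroEGFR 1 71.4%, so the share in PT 1 was close to that of any base. For AstroEGFR 3, PT 4 peaks covered 92.7% of bases, PT 1 peaks 92.0%, PT 3 peaks 86.9% and AstroEGFR 1 peaks 82.9%. The shares in PT 4 and PT 1 were close to the 91.4% and 92.3% of all domain length that they covered. Those in PT 3 and AstroEGFR 1 lay above the 46.1% and 71.4% that these 2 libraries covered.

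Counted domain by domain, every PT library covered more than every AstroEGFR library in 144 domains (16.8%), against 5.24% of all merged regions, and the opposite order was found in 0, against 0.0532%. Without AstroEGFR 3, every PT library exceeded AstroEGFR 1 in 148 (17.2%, against 5.35%), and AstroEGFR 1 exceeded every PT library in 126 (14.7%, against 14.2%). The count in favour of PT thus stayed once the short list was set aside. A similar number of domains then had the opposite order, but at a share near that of all merged regions. Within the sets, PT 1 and PT 4 both exceeded AstroEGFR 1 in 626 domains (73.0%, against 25.6%), and PT 3 exceeded AstroEGFR 3 in 802 (93.5%, against 31.7%). PT 3 exceeded AstroEGFR 1 in 165 (19.2%, against 25.7%), and the median difference was 23.5 points in favour of AstroEGFR 1, whereas PT 1 and PT 4 lay a median of 15 and 15.2 points above AstroEGFR 1. A PT library can exceed another library only where it has a peak. PT 1 had a peak in 99.8% of domains, against 52.9% of merged regions under 5 kb. For PT 4 these shares were 99.8% and 53.3%, and for PT 3 94.4% and 30.2%. The opposite order, without AstroEGFR 3, needs a peak of AstroEGFR 1 alone. Shares of PT orders above those of all merged regions thus follow in part from the width rule, and that part was not tested.

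The gap between PT 1, PT 4 and AstroEGFR 1 was wide at a subset of domains. In 147 domains (17.1%) PT 1 and PT 4 both covered at least 50 percentage points more than AstroEGFR 1, a share close to the 16.3% of all merged regions, and in 4 domains (0.466%) AstroEGFR 1 covered at least 50 points more than both, against 7.95%. In chr7:120227227-120247323 (20097 bp), chosen after its values were seen, AstroEGFR 1 covered 6.15%, AstroEGFR 3 0%, PT 1 98.6%, PT 3 16.8% and PT 4 99.9%. In chr10:3277579-3287958 (10380 bp), chosen in the same way, AstroEGFR 1 covered 100%, AstroEGFR 3 0%, PT 1 27.1%, PT 3 38.2% and PT 4 8.50%. Gaps of this size thus occurred in both directions. PT 1 and PT 4 had most of the single peaks that set the width of the domains, so the numbers in each direction are not independent of the rule.

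The 27 domains marked by all PT and no AstroEGFR library had a median width of 11509 bp and held 441.4 kb. PT 1 covered 88.8% of their length, PT 4 89.2% and PT 3 36.6%. The nearest AstroEGFR peak lay a median of 19769 bp away (range 268 to 222676 bp), within 5 kb for 5 domains and beyond 100 kb for 2. Some of these domains thus lay close to a stretch with AstroEGFR peaks and others well apart from any. Their number depended on the libraries used, since it was 332 when domains were rebuilt without AstroEGFR 1, 30 without AstroEGFR 3, 28 without PT 3, 16 without PT 4 and 13 without PT 1.

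The widest of the 27 was chr6:72123348-72166362 (43015 bp), of which PT 1 covered 94.1%, PT 3 32.7% and PT 4 99.7%, with both AstroEGFR libraries at 0. Its best peaks stood at within-list percentiles of 99.95 (PT 1), 99.27 (PT 3) and 99.15 (PT 4), and no AstroEGFR peak lay closer than 47267 bp. The PT 4 value is the average shared by its peaks tied at 3100, so these percentiles do not rank the libraries against each other. The domain chr6:72167238-72193860 (26623 bp), 875 bp further on, was covered to 88.6% in PT 1, 36.0% in PT 3 and 100% in PT 4. Together they formed a pair on chromosome 6 that was broad in PT 1 and PT 4 and made of shorter peaks in PT 3.

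The other 3 of the 5 widest lay side by side on chromosome 7. In chr7:103945756-103981265 (35510 bp) PT 1 covered 92.8%, PT 3 28.7% and PT 4 99.6%, and in chr7:103981652-104013485 (31834 bp) the values were 98.6%, 22.4% and 99.6%. In chr7:103920241-103944547 (24307 bp) they were 98.5%, 14.4% and 97.5%, with both AstroEGFR libraries at 0 in all 3. They belonged to a group of 6 neighbouring domains, chr7:103920241-104099107, that held 131231 bp, of which AstroEGFR 1 covered 4364 bp, AstroEGFR 3 0 bp, PT 1 126488 bp, PT 3 22161 bp and PT 4 129680 bp. The group was picked for holding these 3 domains, so its order of PT over AstroEGFR restates that choice, and PT 3 lay far below the other PT libraries in it.

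In 3 of the 27 domains, chosen after their values were seen, PT 3 was the library with the highest coverage. It covered 99.9% of chr10:84212512-84235637 (23126 bp), where PT 1 covered 84.2% and PT 4 84.5%. It covered 98.9% of chr7:86641498-86661673 (20176 bp), where PT 1 covered 45.2% and PT 4 50.7%, and 96.8% of chr7:86675667-86692205 (16539 bp), where PT 1 covered 46.0% and PT 4 22.3%. Both AstroEGFR libraries were at 0 in these domains. PT 3 was therefore not the lowest PT library everywhere, and among all domains it exceeded both other PT libraries in 34 (3.96%, against 20.3% of all merged regions), of which 18 (52.9%) were on chromosome 10.

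The 41 domains marked by AstroEGFR 1, PT 1 and PT 4 only divided in the same way, and 9 of them were on chromosome 17. That chromosome held 41 of the 858 domains (4.78%), so 9 of its 41 domains were of this kind, against 32 of 817 elsewhere. In the widest, chr17:35539247-35578952 (39706 bp), chosen after its values were seen, AstroEGFR 1 covered 100% with 1 peak, PT 1 74.8% with 18 peaks and PT 4 80.2% with 15 peaks, while AstroEGFR 3 and PT 3 had none. It was part of a group of 6 domains, chr17:35446970-35602884, in which AstroEGFR 1 covered 104810 of 105003 bp, PT 1 64824 bp, PT 4 72540 bp, PT 3 5730 bp and AstroEGFR 3 0 bp. AstroEGFR 1 thus exceeded every PT library here, in contrast to the group on chromosome 7. In chr6:47686883-47723592 (36710 bp), chosen in the same way, AstroEGFR 1 covered 95.5%, PT 1 97.4% and PT 4 98.3%, with the other libraries at 0.

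The opposite division, with peaks in AstroEGFR 3 and PT 3 only, was found in 2 domains, both on the Y chromosome. In chrY:2875270-2901525 (26256 bp) AstroEGFR 3 covered 99.9% and PT 3 99.6%, and in chrY:2847957-2864149 (16193 bp) they covered 100% and 86.8%. AstroEGFR 1, PT 1 and PT 4 were at 0 in both. These were the only domains on that chromosome, and the libraries that marked them share a replicate number as well as a set of lists, so that batch and set cannot be told apart here. The sex of the cultures was not given in the labels used here. A missing Y chromosome and a missing mark can therefore not be told apart in the other libraries.

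Although AstroEGFR 3 covered 7.69% of domain length, it covered at least 50% of 11 domains, which held 211.1 kb or 19.4% of its covered length in domains. They lay on 5 chromosomes, with 4 on chromosome 1, 3 on chromosome 11, 2 on the Y chromosome and 1 each on chromosomes 9 and 12. Without these 11, AstroEGFR 3 covered 6.31% of domain length. They were chosen for this value, and 8 of them were the 8 domains covered to at least 50% in all 5 libraries. Among these 8 were chr9:2999836-3038707 and the domains of chr11:3030314-3100314, which lay near the low end of the coordinates of their chromosomes. The input libraries were not analysed, so the mark and a background shared by all libraries cannot be told apart at these 8.

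In chr9:2999836-3038707, 1 of those 8, AstroEGFR 1 covered 100%, AstroEGFR 3 55.8%, PT 1 99.7%, PT 3 51.0% and PT 4 99.7%. In chr11:3075019-3100314 the values were 94.8%, 99.0%, 91.7%, 99.6% and 95.0% in the same order, and in chr1:90121848-90155599 they were 79.3%, 99.7%, 80.1%, 96.8% and 91.7%. AstroEGFR 3 thus exceeded AstroEGFR 1 at 2 of these 3 domains, with PT 3 high as well. In a neighbour of the last, chr1:90107916-90121500, AstroEGFR 1 covered 5.76%, AstroEGFR 3 98.5%, PT 1 15.4%, PT 3 66.5% and PT 4 29.5%, so that there AstroEGFR 3 exceeded every PT library. These domains were picked after their values were seen.

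The domains were unevenly spread over the chromosomes. Chromosome 10 held 119 of the 858 (13.9%), where it held 4.87% of the genomic span and 9.73% of merged regions, which was 9.26 domains per 10 Mb. The Y chromosome followed with 6.89, from 2 domains on a span of 2.90 Mb. Chromosome 11 had 6.57 per 10 Mb (80 domains), chromosome 7 5.31 (81 domains), chromosome 15 5.13 and chromosome 9 4.92. At the other end, chromosome 14 had 0.963 per 10 Mb and the X chromosome 0.12, with 2 domains. Positions on chromosomes are those of the lists, and spans were taken up to the last peak of any list.

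Coverage of the domains on chromosomes 7 and 10 was compared with that on all other chromosomes pooled. These 2 chromosomes were not chosen by a rule set beforehand. On chromosome 10 AstroEGFR 3 covered 2.10% of domain length against 8.57% elsewhere, while AstroEGFR 1 covered 80.5% against 70% and PT 3 58.2% against 44.2%. All 5 libraries marked 28 of its domains (23.5%), against 376 (50.9%) elsewhere. On chromosome 7 AstroEGFR 1 covered 47.8% against 73.8% elsewhere, and covered under 10% in 19 domains (23.5%), against 37 (4.76%). Of the 27 domains marked by all PT and no AstroEGFR library, 11 were on chromosome 7 (13.6% of its domains, against 2.06% elsewhere), as were 32 of the 147 where PT 1 and PT 4 lay at least 50 points above AstroEGFR 1. Chromosome 7 held 9.44% of the domains and 7.14% of merged regions. With neighbours up to 100 kb apart in 1 group, the 27 lay in 21 groups, so not all were separate stretches. The shares of both patterns among all merged regions of chromosome 7 were not counted. The domains and the chromosome as a whole can therefore not be told apart. On chromosome 7 PT 3 (34.9% against 47.2%) and AstroEGFR 3 (4.61% against 8.0%) were lower than elsewhere as well, while PT 1 (94.0% against 92.2%) and PT 4 (92.5% against 91.3%) were not. Several of these values were not particular to the 2 chromosomes. AstroEGFR 1 covered 84.3% on chromosome 3 and 86.1% on chromosome 17, and PT 3 covered 62.9% on chromosome 4. On chromosome 17 PT 3 (30.8%) and AstroEGFR 3 (4.14%) lay below their values on chromosome 7. AstroEGFR 1 was also low on chromosome 13 (55.5%). The peak lists give no copy number, so a different number of copies of either chromosome in some of the cultures and a different coverage per copy cannot be told apart.

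**Figure D5:**
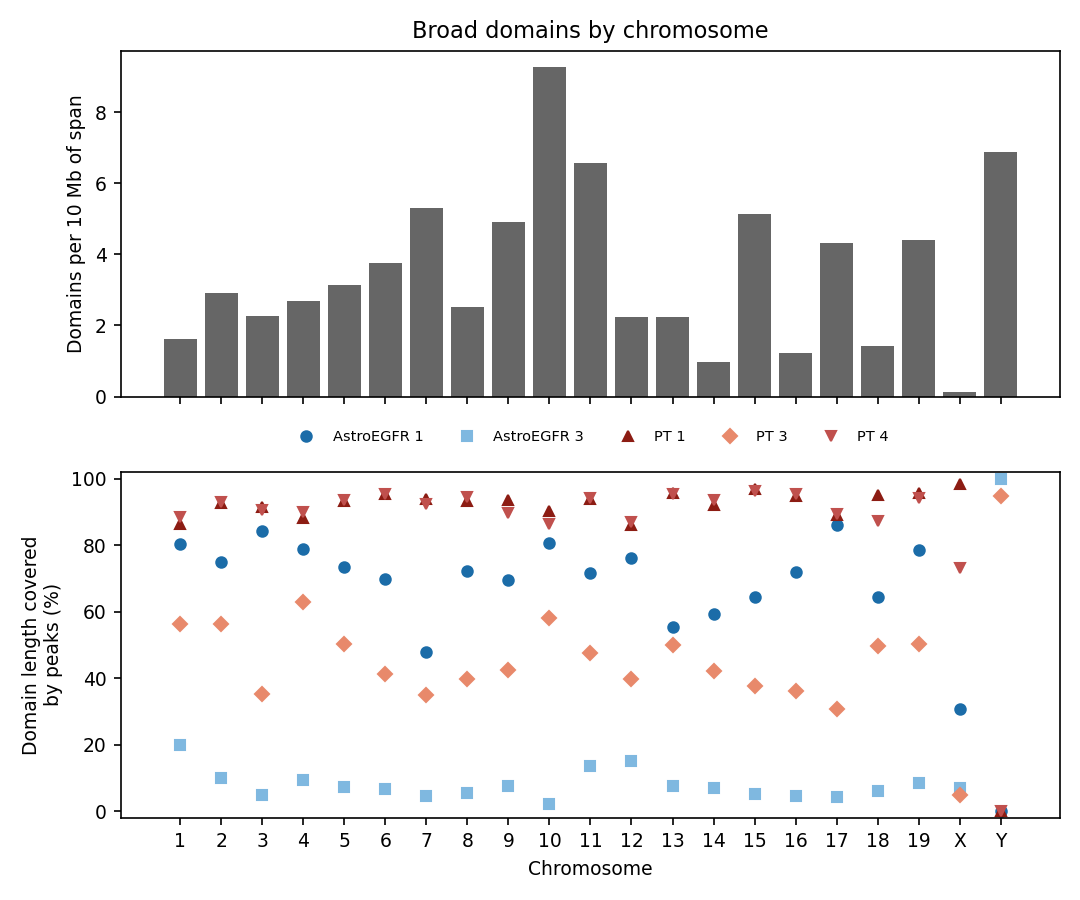
Number of domains per 10 Mb of chromosome span (upper panel, bars) and share of domain length covered by peaks of each library (%, lower panel, 1 point per library) by chromosome. Chromosome 10 has the highest density, 9.26 per 10 Mb, AstroEGFR 1 is lower on chromosome 7 (47.8%) than on any other autosome, and on the Y chromosome only AstroEGFR 3 and PT 3 are above 0.

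Many domains were close neighbours. With domains up to 100 kb apart placed in 1 group, the 858 formed 530 groups, of which 353 held a single domain, 104 held 2, 41 held 3 and 32 held 4 or more, so that 505 domains (58.9%) had a neighbour. The nearest domain lay within 1000 bp for 146 (17%), and the median distance to the nearest domain was 53783 bp. The shortest gap was 5 bp, and chr11:96110552-96168848, the fourth widest, ended 25 bp before the next domain, chr11:96168874-96208635. Some neighbouring domains were thus divided only by a short gap without any peak.

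The largest group was chr10:59786766-60168048, with 13 domains that held 205672 of its 381283 bp (53.9%). A group of 11 followed at chr6:99761706-100093690. In the group of 5 around the fourth widest domain, chr11:96031656-96238899, AstroEGFR 1 covered 134541 bp, AstroEGFR 3 30807 bp, PT 1 145012 bp, PT 3 134808 bp and PT 4 138317 bp of 150458 bp. All libraries but AstroEGFR 3 filled most of that group, and each PT library lay above each AstroEGFR library, although PT 3 and AstroEGFR 1 were nearly equal. In the group of 8 at chr15:77926405-78178774, AstroEGFR 1 covered 60917 bp, PT 1 144332 bp, PT 3 29299 bp and PT 4 147506 bp of 152082 bp, so that AstroEGFR 1 lay between PT 3 and the other PT libraries. The groups other than the largest were chosen after their values were seen.

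The domains made up a different part of each list. They held 20.2% of the covered length and 9.57% of the peaks of AstroEGFR 1, 31.3% and 24.8% of AstroEGFR 3, 14.9% and 3.77% of PT 1, 16.6% and 9.89% of PT 3, and 15.3% and 4.20% of PT 4. The shares of length were higher in both AstroEGFR lists than in each PT list. The covered length itself was 13.1 Mb for PT 1, 12.9 Mb for PT 4, 10.1 Mb for AstroEGFR 1, 6.52 Mb for PT 3 and 1.09 Mb for AstroEGFR 3. The library with the smallest covered length in domains, AstroEGFR 3, thus had the largest share of its list there.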

How the data were processed

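Peak lists of H3K27me3 ChIP-seq were analysed for 2 AstroEGFR and 3 PT libraries, grouped by their labels. The submitters' processing notes name Bowtie 0.12.9, MACS 1.4.1 and mm9; parameters and the input used per library are not given in the sources used here. The authors called peaks per library, and the deposited lists give position and a score. No header defines the score; it was read as rising when a peak's p-value falls and was only used for ranking or filtering within 1 list. Its minimum per list was 70.05 to 75.69, and many of the strongest peaks were tied at 3100.

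Overlapping or touching peaks were merged, a region counted as marked from 1 bp, and regions of 10000 bp or more were kept. Python 3.11.15, pandas 2.3.3, numpy 2.4.6 and matplotlib 3.10.9 were used, and merging and coverage were tested on simulated data and checked against bedtools 2.31.1. Members and lists were chosen with earlier results of these data known. Named were the 10 widest domains, the 5 widest marked by all libraries, by all PT and no AstroEGFR, by no PT (there were 0), and by AstroEGFR 3 or PT 3 but no library of the other set (there were 2), and the 3 regions on each side of the width threshold. Held-out coverage was compared by an exact permutation test over the 10 splits. The study's astrocyte batches were independent, but its tumours were grown from such batches, so equal replicate numbers may mark a shared batch. The test ignored this, and its p-value covers the spread between these libraries only. Counts of marked genes were not run, because annotation of mm9 was not used here. Alternatives covered width, merging gap, score, list length, chromosomes, overlap and omitted libraries.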

Additional observations from a re-analysis of the deposited data

How the results depend on the processing

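No direction was reversed under any alternative run. The number of domains (858) was 3613 at a minimum width of 5000 bp, 178 at 20000 bp, 2778 when peaks up to 1000 bp apart were merged, and 548 when a single peak of that width was required. Domains marked by all PT and no AstroEGFR library (27) numbered 223, 7, 179 and 16 under these settings, and 41 when marking required 25% coverage. Domains marked in all 5 (404) numbered 879 at 5000 bp, 117 at 20000 bp and 831 with the gap, 269 with a score of at least 100, 250 with lists of equal length and 42 at 25% coverage. Counts with every PT above every AstroEGFR library (144) were 626 and 802 within the sets, an alternative chosen after seeing the data, as was leaving out AstroEGFR 3 there.

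Leaving out each library in turn gave 586 to 854 domains, coverage differences of 5.17 to 70.7 points, held-out differences of 6.86 to 70.3 points, percentile differences of 0.774 (without AstroEGFR 3) to 22.4 (without AstroEGFR 1), 13 (without PT 1) to 332 (without AstroEGFR 1) domains marked by all PT only, and 304 to 774 (without AstroEGFR 3) marked in all. Within the set with peaks on unplaced sequences the percentile difference was 1.92. With a replicate block over numbers 1 and 3 the differences were 29.6 points, 29.95 points held out and 11.1 in percentile. The pairing is not stated by the labels, but the study grew its tumours from numbered batches. Across domains the deviations of AstroEGFR 1 and PT 1 correlated at 0.0239, and those of AstroEGFR 3 and PT 3 at 0.00277. With 2 AstroEGFR libraries their deviations mirror each other, and AstroEGFR 3 with PT 1 gave -0.0239. These correlations therefore cannot show whether equal numbers share a batch. The gene counts and their alternative were not run. Read depth is unknown, so regions under a list's threshold cannot be read as unmarked.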
